A study of Mus musculus with 6 samples.

Results

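The genes described here encode nuclear subunits and assembly factors of respiratory complexes III, IV and V, and cytochrome c. They were taken by symbol: protein-coding genes whose symbols begin with Uqcr, Atp5 or Cox followed by a number from 4 to 20, with Cyc1, Cycs, Surf1, Sco1, Sco2 and Bcs1l added. Cytochrome oxidase genes with tissue or oxygen dependent isoforms (Cox4i1, Cox4i2, Cox6a1, Cox6a2, Cox7a1, Cox7a2, Cox8a and Cox8b) are not part of this set. The rule found 50 genes with 77 probes, of 20128 genes with a symbol and 55608 probes on the arrays. The rule itself reads symbols and no signal.

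RNA of whole hearts from C57/B6 mice aged 8 weeks was hybridised in 1 colour to Agilent mouse arrays, with 1 array for each heart. In the KO-labelled group (PHD2/3f/f; Cre+/-, 3 hearts), the mice carried floxed alleles of both PHD2 and PHD3 together with Cre. In the control group (PHD2/3f/f; Cre-/-, 3 hearts), they carried those floxed alleles without Cre. PHD2 and PHD3, encoded by Egln1 and Egln3, are oxygen-dependent hydroxylases that mark the hypoxia-inducible factors for destruction. The labels name neither the promoter that drives Cre nor the sex of the mice. The controls carried no Cre, so the presence of Cre and the loss of the alleles cannot be told apart. Egln1 signal was lower in KO-labelled hearts (log2 difference -1.23 ± 0.21 SE, adjusted p = 0.00654), whereas Egln3 signal was higher (1.98 ± 0.17 SE, adjusted p = 0.00166). The lower Egln1 signal matches the label, while the higher Egln3 signal by itself shows no loss of that gene. Whether the Egln3 probe reads a part of the gene that Cre removes was not tested, nor was the cause of the higher signal. Every direction given here rests on the labels. All 6 arrays shared 1 slide and 1 scan, with KO-labelled and control hearts in different columns of array positions, so position and group cannot be told apart.

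Complex III takes electrons from ubiquinol and hands them to cytochrome c, complex IV (cytochrome c oxidase) passes them to oxygen, and both pump protons across the inner mitochondrial membrane. Complex V, the ATP synthase, lets the protons flow back through its membrane part, Fo, and uses the turning of a central shaft to make ATP in its head, F1. The heart depends on this route for nearly all of its ATP, and cardiomyocytes are densely packed with mitochondria. The catalytic core of complex IV, cytochrome b and some Fo subunits are encoded by mitochondrial DNA and lie outside this gene set. The genes of the set are nuclear and, in cell culture work, many are targets of the regulators NRF1, GABP (also called NRF2), ERR and YY1.

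Most genes of the set were lower together although their promoters are separate, so the promoters of 6 of them are shown. For complex III subunits, complex IV subunits, complex IV assembly, and the F1 and Fo groups of the ATP synthase, the gene is the one with the largest fall among those whose single given promoter holds an NRF1, ERR, GABP or YY1 motif. Cox19, which had the highest difference of the tested members with a single given promoter, is shown too and was chosen without asking for a motif. The others were chosen for holding one, so these 6 promoters cannot show whether motifs go with the direction of a difference. Each sequence is from RefSeq on GRCm38.p6 and runs 5′ to 3′ on the strand of the gene, from 250 bases before its start to 50 after. Capitals mark matches to the NRF1 motif (GCGCA, any base, then GCGC), the ERR site AAGGTCA, the GABP motif CCGGAAG or the YY1 motif AAGATGGC, on either strand. Matches of these motifs could overlap one another. They lie at chr9:108936398-108936697 on the plus strand for Uqcrc1, and on the minus strand at chr7:30626065-30626364 for Cox6b1, chr11:64079423-64079722 for Cox10, chr16:91931581-91931880 for Atp5o, chr2:73911277-73911576 for Atp5g3 and chr5:139345117-139345416 for Cox19.
Uqcrc1: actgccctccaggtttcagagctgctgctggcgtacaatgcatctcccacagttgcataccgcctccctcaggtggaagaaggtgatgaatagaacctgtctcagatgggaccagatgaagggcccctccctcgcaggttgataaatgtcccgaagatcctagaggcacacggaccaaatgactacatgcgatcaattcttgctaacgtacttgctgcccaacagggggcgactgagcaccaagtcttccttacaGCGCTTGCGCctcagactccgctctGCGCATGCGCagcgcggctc
Cox6b1: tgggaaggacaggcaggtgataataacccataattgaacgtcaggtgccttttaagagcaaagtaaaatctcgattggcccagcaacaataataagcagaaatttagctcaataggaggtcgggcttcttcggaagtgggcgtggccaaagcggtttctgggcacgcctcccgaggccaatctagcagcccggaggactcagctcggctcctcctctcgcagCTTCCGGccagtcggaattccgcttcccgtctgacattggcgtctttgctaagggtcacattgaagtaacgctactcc
Cox10: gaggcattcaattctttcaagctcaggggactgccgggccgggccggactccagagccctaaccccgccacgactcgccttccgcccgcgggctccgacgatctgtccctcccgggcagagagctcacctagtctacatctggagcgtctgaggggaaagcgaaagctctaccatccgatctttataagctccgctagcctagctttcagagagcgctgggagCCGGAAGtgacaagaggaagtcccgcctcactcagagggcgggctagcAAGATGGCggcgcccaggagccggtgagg
Atp5o: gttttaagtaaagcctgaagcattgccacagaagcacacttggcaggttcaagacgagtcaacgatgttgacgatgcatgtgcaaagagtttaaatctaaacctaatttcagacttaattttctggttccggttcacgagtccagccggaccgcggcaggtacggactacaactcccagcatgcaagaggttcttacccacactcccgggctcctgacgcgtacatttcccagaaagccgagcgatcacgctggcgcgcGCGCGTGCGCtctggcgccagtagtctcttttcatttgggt
Atp5g3: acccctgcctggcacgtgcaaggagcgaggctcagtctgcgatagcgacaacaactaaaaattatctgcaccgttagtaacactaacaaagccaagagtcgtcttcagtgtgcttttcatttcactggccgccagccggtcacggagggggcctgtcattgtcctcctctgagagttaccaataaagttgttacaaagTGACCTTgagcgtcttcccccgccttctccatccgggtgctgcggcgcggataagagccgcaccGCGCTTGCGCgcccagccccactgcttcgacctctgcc
Cox19: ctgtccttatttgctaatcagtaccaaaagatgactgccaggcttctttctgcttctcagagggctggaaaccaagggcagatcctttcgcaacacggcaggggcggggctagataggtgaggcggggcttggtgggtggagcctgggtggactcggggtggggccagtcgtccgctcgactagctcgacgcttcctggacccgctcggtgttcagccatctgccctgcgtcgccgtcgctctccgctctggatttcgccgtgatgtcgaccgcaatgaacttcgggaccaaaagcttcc

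In the Uqcrc1 promoter 2 NRF1 matches follow the start site, and Atp5g3 holds an ERR site ahead of its start and an NRF1 match after it. Cox10 holds a GABP match before and a YY1 match after the start, and no motif of the 4 was found in the Cox19 window. Promoters were given for 40 of the 50 genes, 44 promoters in all. Among these 40 genes, 17 held the GABP motif (42.5%, against 12.9% of 17492 protein-coding genes), 7 the NRF1 motif (17.5%, against 7.17%), 5 the YY1 motif (12.5%, against 3.57%) and 4 the ERR site (4.73% of all). At least 1 of the 4 motifs was present in 24 of 40 members, or 60.0%, against 24.9% of all protein-coding genes. Among the 32 members with a promoter that were lower in KO-labelled hearts, 19 held at least 1. Of 35 complex I and II subunit genes with a promoter, 6 held the GABP motif (17.1%), 9 the NRF1 motif (25.7%), 7 the YY1 motif and 4 the ERR site (11.4%). The core of the HIF response element, ACGTG, was present in 12 of 40 members (30.0%, against 23.2%), and the cyclic AMP response element TGACGTCA in 2 of 40 (2.54% of all). Of the 32 genes with a promoter that were lower in KO-labelled hearts, 13 held the GABP motif, 6 the NRF1 motif, 4 the YY1 motif, 4 the ERR site, 11 the HIF core and 2 the cyclic AMP element. The other 8 members with a promoter include Cox7b2, which was not tested, and lack Cox18, for which no promoter was given. Of these 8, 4 held the GABP motif, 1 the NRF1 motif, 1 the YY1 motif and 1 the HIF core. For the ERR site and the cyclic AMP element the counts were 0 and 0. A match is a string of letters and shows no binding.

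Genes of all 3 complexes had lower signal in KO-labelled hearts. Of the 50 genes, 47 were measured well above background, all of them on all 6 arrays, and these were tested. By limma with Benjamini-Hochberg adjustment over 20027 genes and features, 39 of the 47 were lower in KO-labelled hearts, where 23.0% of all features were lower. No member was higher (0 of 47, or 1 at an unadjusted p under 0.05), where 16.1% of all features were, and 8 members did not pass. The median log2 difference was -0.97 over the 47 members and -0.11 over all features. At least 2-fold lower signal was found in 18 members (8.41% of all features), and in 41 members all 3 KO-labelled hearts lay below all 3 control hearts (33.1% of all features). Without control replicate 1, 23 members were lower, and likewise 23 without control replicate 3, with 2068 and 2202 of all features lower. Whole hearts were measured, so fewer cells of a type and less RNA per cell cannot be told apart.

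**Figure D1:**
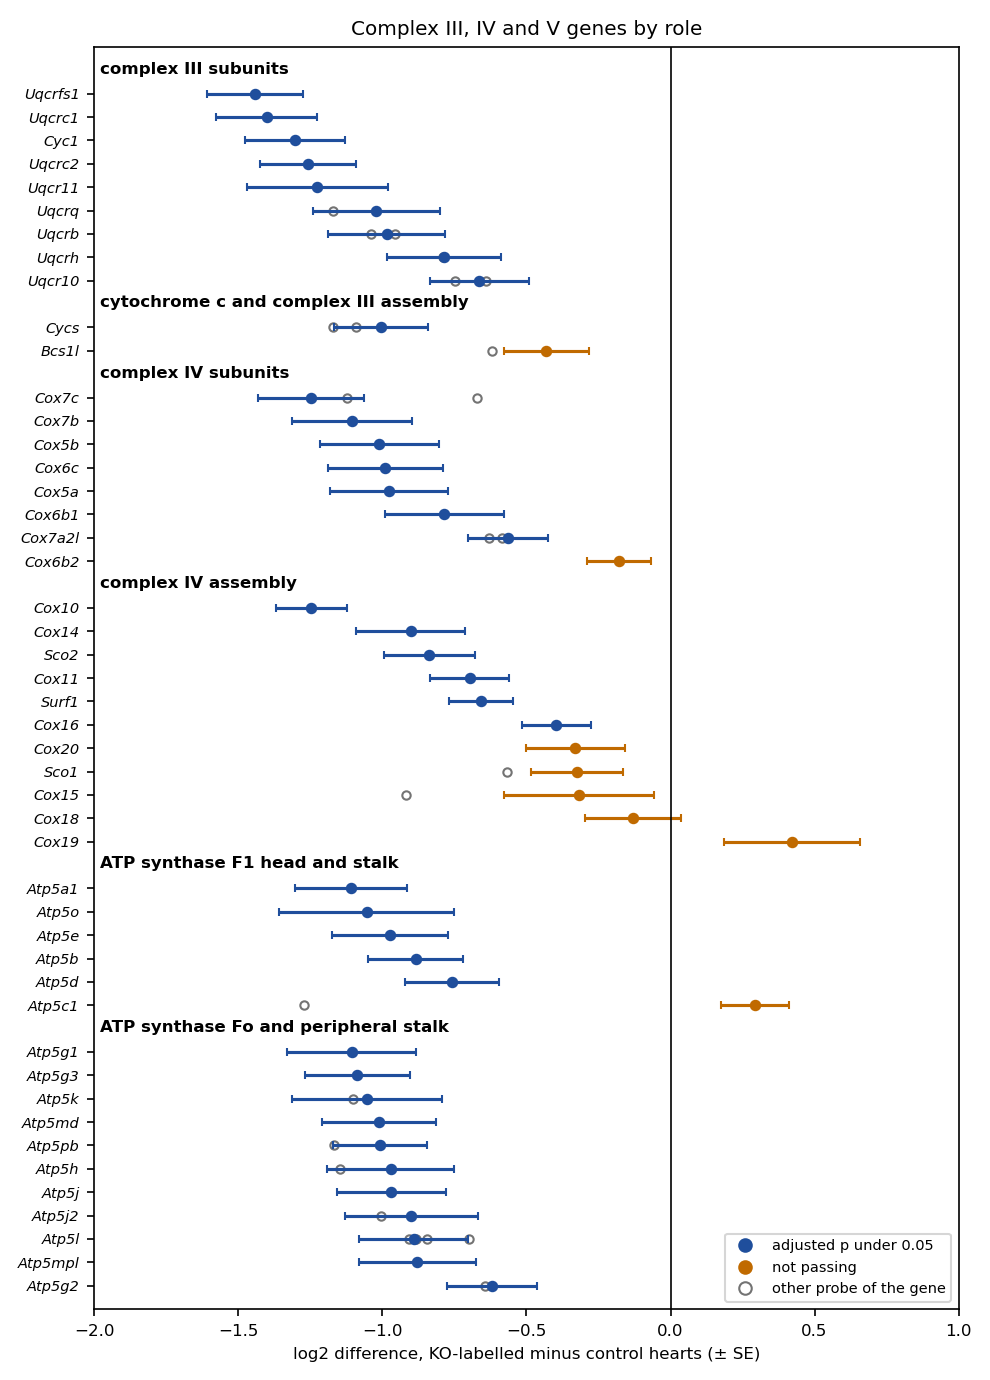
Log2 difference in signal between KO-labelled and control hearts for the 47 tested genes, grouped by role, as the estimate ± SE from limma (3 hearts per group). Blue points are lower with an adjusted p under 0.05, orange points did not pass, and open circles are other probes of the same gene. The structural subunits lie mostly between -0.56 and -1.44, the assembly factors of complex IV spread from -1.25 to 0.42, and the open circle of Atp5c1 lies at -1.27, far from the probe used.

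All 9 measured subunits of complex III were lower in KO-labelled hearts, with log2 differences of -1.44 to -0.66 and a median of -1.23, and 6 of the 9 were at least 2-fold lower. Values per heart are log2 signals relative to the 75th percentile of the array, a scale on which different genes cannot be compared in level. Uqcrfs1 (NM_025710), the Rieske iron-sulphur protein that takes electrons from ubiquinol, had 6.18, 6.58 and 6.46 in KO-labelled hearts, against 8.01, 7.61 and 7.92 in control hearts. Its signal was 2.72-fold lower (log2 difference -1.44 ± 0.17 SE, adjusted p = 0.00294), and the groups were far apart. Uqcrc1 (NM_025407), a core protein on the matrix side, had 5.84, 6.15 and 6.17 in KO-labelled hearts, against 7.59, 7.16 and 7.61 in control hearts (2.64-fold lower, log2 difference -1.40 ± 0.18 SE, adjusted p = 0.00340). The other core protein, Uqcrc2, had a log2 difference of -1.26. Cyc1 (NM_025567), the haem-carrying cytochrome c1, had 7.43, 7.80 and 7.86 in KO-labelled hearts, against 9.15, 8.76 and 9.10 in control hearts (2.47-fold lower, log2 difference -1.30 ± 0.17 SE, adjusted p = 0.00390). In these genes every KO-labelled heart was lower than every control heart, and heart 1 was the lowest of the KO-labelled hearts.

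The 5 small subunits, which carry no redox centre, had log2 differences of -1.23 (Uqcr11), -1.02 (Uqcrq), -0.99 (Uqcrb), -0.79 (Uqcrh) and -0.66 (Uqcr10). Uqcrh is the acidic hinge protein near the docking place of cytochrome c. Uqcr10 (NM_197979) had the smallest difference of the complex, with 7.75, 8.07 and 8.10 in KO-labelled hearts, against 8.76, 8.36 and 8.79 in control hearts (1.58-fold lower, log2 difference -0.66 ± 0.17 SE, adjusted p = 0.0248). Its groups did not overlap, but KO-labelled heart 3 and control heart 2 were close. It did not pass without KO replicate 1 or 3 or without control replicate 1 or 3, with an adjusted p of up to 0.0902.

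Cytochrome c was lower as well, while the complex III assembly gene did not pass. Cycs (NM_007808), the mobile carrier between complexes III and IV, had 7.66, 7.79 and 7.94 in KO-labelled hearts, against 8.99, 8.52 and 8.89 in control hearts. The groups did not overlap (2.00-fold lower, log2 difference -1.004 ± 0.16 SE, adjusted p = 0.00613), and its other 2 probes had log2 differences of -1.17 and -1.09. Bcs1l (NM_025784), the ATPase that inserts the Rieske protein into complex III, had 3.29, 3.38 and 3.51 in KO-labelled hearts, against 3.99, 3.58 and 3.91 in control hearts. Its groups did not overlap either, yet the difference did not pass (-0.43 ± 0.15 SE, adjusted p = 0.0584). Its other probe, tested when every probe was fitted on its own, was lower by that test (-0.62, adjusted p = 0.0194).

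Of the 10 complex IV subunit genes in the set, 8 were tested and 7 were lower, with a median log2 difference of -0.98. Cox7c (NM_007749), a small membrane subunit, had 6.76, 7.24 and 7.17 in KO-labelled hearts, against 8.43, 8.04 and 8.45 in control hearts (2.38-fold lower, log2 difference -1.25 ± 0.19 SE, adjusted p = 0.00484). With every probe fitted on its own in limma, another Cox7c probe was lower (-1.12, adjusted p = 0.00941). A dim Cox7c probe, well above background on only 3 arrays, did not pass (-0.67, adjusted p = 0.166). Cox7b had 7.79, 8.29 and 8.23 in KO-labelled hearts, against 9.42, 8.86 and 9.35 in control hearts (2.15-fold lower, log2 difference -1.11 ± 0.21 SE, adjusted p = 0.00924). Cox5b, the zinc-binding subunit on the matrix side, had 7.06, 7.51 and 7.43 in KO-labelled hearts, against 8.58, 7.97 and 8.48 in control hearts (2.02-fold lower, log2 difference -1.01 ± 0.21 SE, adjusted p = 0.0118). Groups were separate in each of these genes, with control heart 2 the lowest control. Cox6c (-0.99), Cox5a (-0.98), Cox6b1 (-0.79) and Cox7a2l (-0.56) were lower too. All 3 probes of Cox7a2l were lower, at -0.56, -0.58 and -0.63, but the gene passed in only 12 of 19 other settings. It did not pass with spike-in scaling, no filter on dim probes or the replicate block. Nor did it pass in limma without KO replicate 1 or 3 or without control replicate 1 or 3 (adjusted p up to 0.0825).

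The 3 remaining genes of the complex encode subunit isoforms known from testis. Cox6b2 (NM_183405) had 0.43, 0.49 and 0.39 in KO-labelled hearts, against 0.60, 0.53 and 0.71 in control hearts. Although its groups did not overlap, the difference was small and did not pass (-0.18 ± 0.11 SE, adjusted p = 0.235), and with spike-in scaling its sign turned (0.02). Neither Cox7b2 nor Cox8c was well above background on an array.

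The assembly factors of complex IV were the most uneven group. Of the 12 genes, 11 were tested, 6 were lower and 5 did not pass, with a median log2 difference of -0.40 and a range of -1.25 to 0.42. Cox10 (NM_178379), which makes haem O on the way to the haem A of the oxidase, had -1.50, -1.30 and -1.28 in KO-labelled hearts, against -0.05, -0.24 and -0.05 in control hearts. It was 2.37-fold lower (log2 difference -1.25 ± 0.12 SE, adjusted p = 0.00226), with the smallest adjusted p of all members. Cox15 (NM_144874) carries out the next step, from haem O to haem A, and had 0.20, 1.13 and 0.41 in KO-labelled hearts, against 1.12, 0.68 and 0.89 in control hearts. These groups overlapped through KO-labelled heart 2, and the difference did not pass (-0.32 ± 0.26 SE, adjusted p = 0.361). The other Cox15 probe was lower when each probe was fitted on its own (-0.92, adjusted p = 0.00578), so the 2 probes of this gene gave different calls with the same sign.

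Among the genes of copper delivery, Sco2 had 2.55, 2.60 and 2.51 in KO-labelled hearts, against 3.51, 3.08 and 3.58 in control hearts (1.79-fold lower, log2 difference -0.84 ± 0.16 SE, adjusted p = 0.00923). Its relative Sco1 had -1.91, -1.53 and -1.74 in KO-labelled hearts, against -1.27, -1.63 and -1.29 in control hearts, with overlap (-0.33 ± 0.16 SE, adjusted p = 0.147). The other Sco1 probe, fitted on its own in limma, did not pass either (-0.57, adjusted p = 0.0642). Cox11, which supplies copper to the catalytic subunit, was lower (-0.70), and Cox17, the copper donor of the intermembrane space, was not well above background on any array with either probe. Cox19 (NM_197980), a copper-related protein of the same space, was the one complex IV gene with a positive difference. It had 5.06, 4.30 and 4.41 in KO-labelled hearts, against 4.35, 3.90 and 4.25 in control hearts. These groups overlapped, KO-labelled heart 1 stood highest, and the difference did not pass (0.42 ± 0.24 SE, adjusted p = 0.194).

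The remaining factors take part in building the subunit modules of the oxidase. Cox14, which acts early on the core subunit, had 5.93, 6.23 and 6.15 in KO-labelled hearts, against 7.21, 6.63 and 7.18 in control hearts (1.87-fold lower, log2 difference -0.90 ± 0.19 SE, adjusted p = 0.0130). Surf1, whose human counterpart is mutated in a form of Leigh syndrome, was 1.58-fold lower (log2 difference -0.66 ± 0.11 SE, adjusted p = 0.00667). Cox16 was lower by the smallest amount of the members that passed (-0.40 ± 0.12 SE, adjusted p = 0.0401). It passed in 8 of 19 other settings, and did not with normexp, quantile, median, cyclic loess or spike-in scaling, the last with the largest adjusted p, 0.441. Surf1 and Cox11 did not pass with spike-in scaling alone (adjusted p of 0.0711 and 0.0637). Neither Cox20 nor Cox18, which handle the second core subunit during its insertion, passed. Cox20 had 4.86, 4.66 and 4.86 in KO-labelled hearts, against 5.33, 4.80 and 5.24 in control hearts (-0.33 ± 0.17 SE, adjusted p = 0.165). Cox18 had 0.47, -0.08 and 0.37 in KO-labelled hearts, against 0.40, 0.32 and 0.43 in control hearts (-0.13 ± 0.17 SE, adjusted p = 0.563). Both overlapped between groups, and the sign of Cox18 turned with spike-in scaling (0.07) and without KO replicate 2 (0.04).

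**Figure D2:**
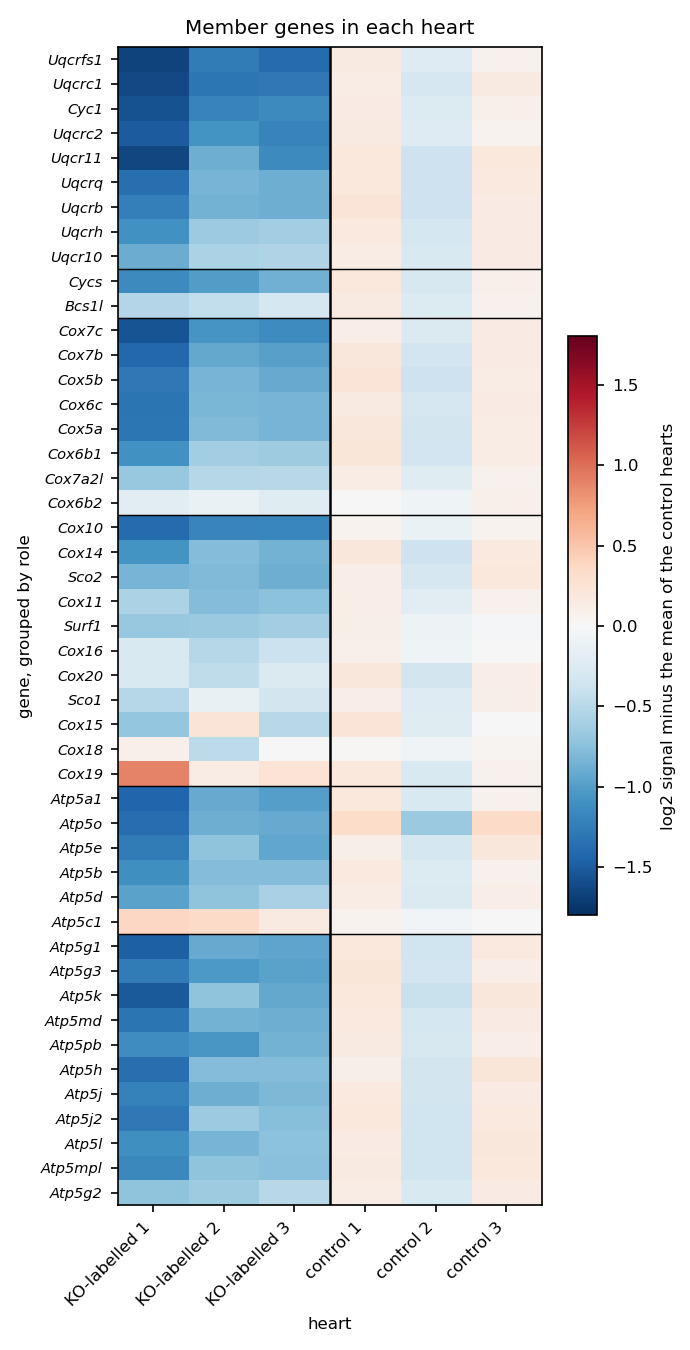
Log2 signal of each tested gene in each heart minus the mean of the 3 control hearts for that gene, with blue lower and red higher, the 3 KO-labelled hearts left of the line and the 3 control hearts right of it. KO-labelled heart 1 is the deepest blue column (median over genes -1.16), control heart 2 is the lowest control (median -0.30), and Cox19 and Atp5c1 stand out as red rows in the KO-labelled hearts.

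ATP synthase genes were lower through the head, the stalks and the membrane part. Of 17 subunit genes, all tested, 16 were lower, with a median log2 difference of -0.97. Older symbols are used for these genes, as in the gene table. Atp5a1 (also Atp5f1a, NM_007505), the alpha subunit of the F1 head, had 7.61, 8.14 and 8.05 in KO-labelled hearts, against 9.24, 8.77 and 9.12 in control hearts (2.16-fold lower, log2 difference -1.11 ± 0.20 SE, adjusted p = 0.00750). Atp5b, the catalytic beta subunit, was 1.85-fold lower (-0.88 ± 0.16 SE, adjusted p = 0.00891). In both genes of the hexameric head every KO-labelled heart lay below every control heart. Atp5d and Atp5e, the delta and epsilon subunits at the foot of the central shaft, had log2 differences of -0.76 and -0.97. For Atp5e the signals were 8.54, 9.08 and 8.86 in KO-labelled hearts, against 9.906, 9.486 and 10.005 in control hearts (adjusted p = 0.0120). Atp5o (also Atp5po), the protein that ties the head to the outer stalk, had 5.07, 5.56 and 5.53 in KO-labelled hearts, against 6.77, 5.77 and 6.78 in control hearts (2.08-fold lower, log2 difference -1.05 ± 0.30 SE, adjusted p = 0.0344). Control heart 2 lay close to the KO-labelled hearts in this gene, and it did not pass when any one of 5 hearts (all but control replicate 2) was left out, with an adjusted p of up to 0.112.

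The gamma subunit gene, Atp5c1 (also Atp5f1c, NM_001112738), whose product is the turning shaft, was the only gene of the set with tested probes of opposite sign, among 17 genes with more than 1 tested probe. The brighter probe, A_55_P2150908, had 5.19, 5.17 and 4.97 in KO-labelled hearts, against 4.88, 4.76 and 4.81 in control hearts. All KO-labelled hearts were above all control hearts (22.7% of all features), but the difference did not pass (0.29 ± 0.12 SE, adjusted p = 0.0879). It passed as higher with normexp, quantile normalization and cyclic loess. The other probe, A_55_P2150906, had 2.66, 2.75 and 3.26 in KO-labelled hearts, against 4.29, 3.82 and 4.38 in control hearts, and was lower with every probe fitted on its own (-1.27 ± 0.22 SE, adjusted p = 0.00742). The log2 ratio of the dimmer to the brighter probe on each array was -2.53, -2.42 and -1.71 in KO-labelled hearts, against -0.59, -0.95 and -0.43 in control hearts. The ratios did not overlap and differed by -1.56 (exact permutation test, 2-sided, p = 0.1, the smallest that 3 against 3 hearts allow). Both probes carry the same transcript accession, and which part of the gene each one reads is not known from the files. With the mean of the 2 probes the gene was lower (-0.49, adjusted p = 0.0295).

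**Figure D3:**
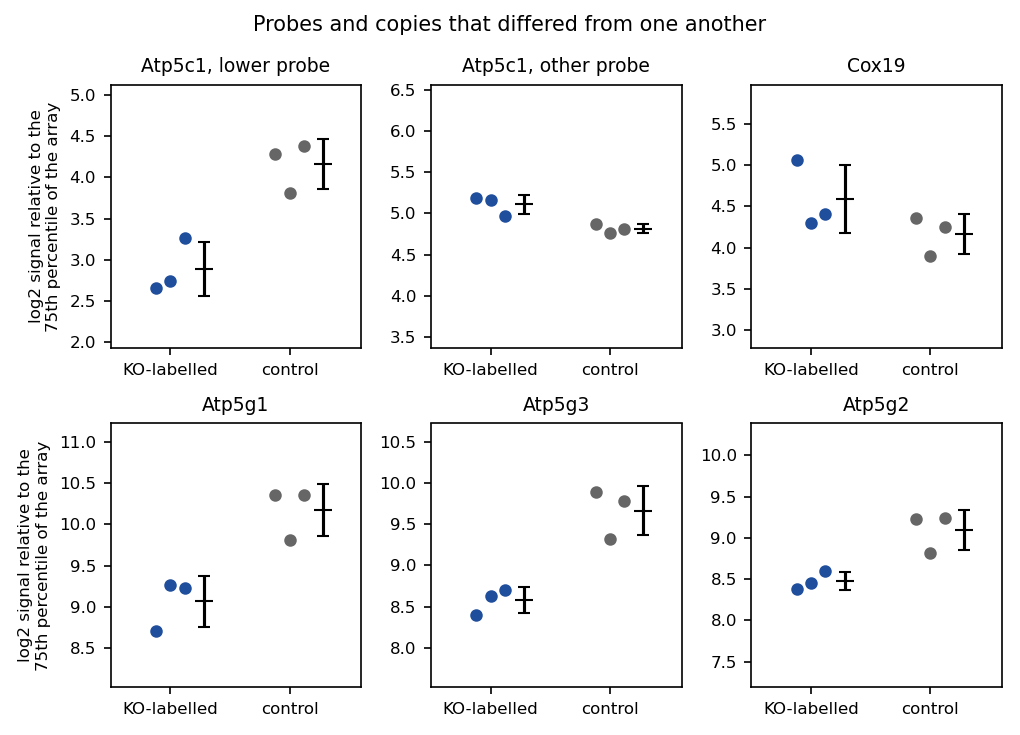
Log2 signal relative to the 75th percentile of the array for both Atp5c1 probes, Cox19 and the 3 genes of the c subunit, with a point for each heart and the mean ± SD beside it (3 hearts per group). Each panel spans the same number of log2 units on its own range. The Atp5c1 probes move apart, Cox19 overlaps between groups, and Atp5g2 shows the smallest gap of the 3 c subunit genes.

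All 11 genes of Fo and the peripheral stalk were lower, between -1.11 and -0.62, with a median of -0.97. Atp5g1, Atp5g3 and Atp5g2 encode the same mature c subunit, which forms the proton-driven ring, with different targeting sequences. Atp5g1 had 8.71, 9.27 and 9.23 in KO-labelled hearts, against 10.36, 9.81 and 10.36 in control hearts (2.15-fold lower, log2 difference -1.11 ± 0.22 SE, adjusted p = 0.0112). Atp5g3 had 8.40, 8.63 and 8.70 in KO-labelled hearts, against 9.89, 9.32 and 9.78 in control hearts (2.12-fold lower, log2 difference -1.09 ± 0.18 SE, adjusted p = 0.00654). Atp5g2 had 8.38, 8.45 and 8.60 in KO-labelled hearts, against 9.23, 8.82 and 9.24 in control hearts (1.54-fold lower, log2 difference -0.62 ± 0.16 SE, adjusted p = 0.0223). Groups were separate in all 3 copies. Under spike-in scaling Atp5g2 did not pass (adjusted p = 0.0544), nor without any one heart other than KO replicate 3 or control replicate 2 (adjusted p up to 0.0844).

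The log2 ratio of Atp5g1 to Atp5g2 on each array was 0.33, 0.81 and 0.63 in KO-labelled hearts, against 1.13, 0.99 and 1.11 in control hearts, a difference of -0.49. That of Atp5g3 to Atp5g2 was 0.02, 0.18 and 0.10 in KO-labelled hearts, against 0.66, 0.51 and 0.54 in control hearts, a difference of -0.47. In both, the ratios of the groups did not overlap. All 3 ratios compared, that of the Atp5c1 probes included, were chosen after the values had been seen, and they are a description. The exact permutation test gave 0.1 for each, the smallest possible, and 0.1 after adjustment over the 3. Among the other genes of Fo, Atp5k (subunit e) had 7.45, 8.23 and 8.03 in KO-labelled hearts, against 9.15, 8.56 and 9.17 in control hearts (2.08-fold lower, log2 difference -1.05 ± 0.26 SE, adjusted p = 0.0208). The stalk genes Atp5pb (subunit b), Atp5h (subunit d) and Atp5j (coupling factor 6) had log2 differences of -1.01, -0.97 and -0.97. Atp5md, Atp5j2, Atp5l and Atp5mpl, small membrane subunits near the dimer interface, had -1.01, -0.90, -0.89 and -0.88. All 5 probes of Atp5l were lower, between -0.91 and -0.70.

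Counting probes in place of genes gave the same picture for most of the set. When each probe was fitted on its own with limma, 62 of 72 tested probes were lower, 0 were higher (1 at an unadjusted p under 0.05) and 10 did not pass. In that fit, counted on the brightest probe of each of 20027 genes and features, 4546 (22.7%) were lower and 3183 were higher. In 16 of the 17 genes with more than 1 tested probe, all probes had the same sign. Near-identical gene copies could share a probe's signal, and this was not tested.

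The hearts of a group differed from one another in a way most members shared. Control heart 2 was the lowest control in 47 of 47 tested members (59.2% of all features), and KO-labelled heart 1 was the lowest KO-labelled heart in 39 of 47 (40.4% of all features). The median deviation of the members from the mean of the controls was -1.16, -0.78 and -0.84 in the KO-labelled hearts, against 0.17, -0.30 and 0.13 in the control hearts. The 75th percentile signal used for scaling was 235, 187 and 198 on KO-labelled arrays, against 147, 201 and 148 on control arrays, so the arrays of KO-labelled heart 1 and control heart 2 had the highest of their groups. With arrays set level on spike-in probes, control heart 2 was the lowest control in 20 of 47 members (8.31% of all features) and the control medians were 0.01, 0.00 and -0.01, with -0.83, -0.67 and -0.68 in the KO-labelled hearts. The groups stayed apart under that scaling, with all KO-labelled hearts below all control hearts in 39 of 47 members (22.7% of all features). The number was 41 with quantile normalization (31.4% of all features) and 40 with cyclic loess (26.8%).

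**Figure D4:**
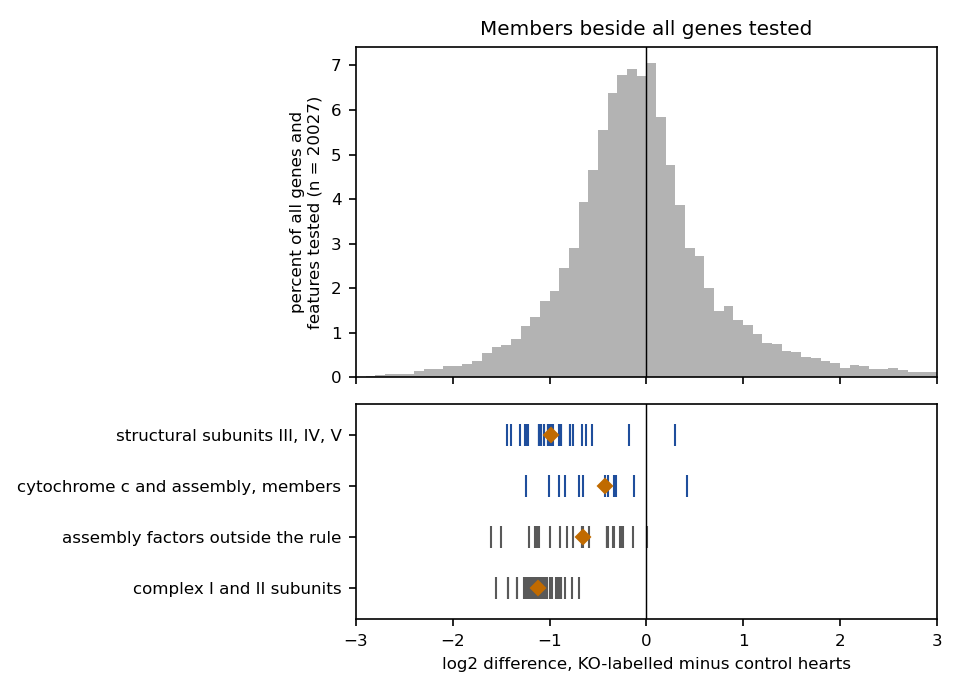
Distribution of the log2 difference between KO-labelled and control hearts over 20027 genes and features (grey bars, percent per bin of 0.1), above single genes (ticks) and medians (diamonds) of 4 groups. The structural subunits of complexes III, IV and V (median -0.99) and complex I and II subunits (median -1.12) lie left of the centre of all features (median -0.11). The assembly factors outside the rule spread from low values to about 0, and the row of cytochrome c and member assembly factors reaches 0.42 (Cox19).

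Genes of the other nuclear respiratory complexes are set beside the members by counts. Of 40 complex I and II subunit genes, 40 were lower in KO-labelled hearts, with a median log2 difference of -1.12, and of 34 structural subunits of complexes III, IV and V, 32 were lower with a median of -0.99. Among the complex I and II genes, Ndufa10 (log2 difference -1.43, adjusted p = 0.00243) and Sdhc (-1.34, adjusted p = 0.00268) were lower with some of the smallest p values of that list. Among 26 tested assembly and biogenesis factors of complexes III to V outside the rule, 15 were lower and 0 higher (0 also at an unadjusted p under 0.05), with a median of -0.66. Both lists hold Ndufa4, now counted with complex IV, at -1.13. Those with the smallest p were Dmac2l, or factor B of the ATP synthase (log2 difference -1.14, adjusted p = 0.00300), Tmem70, which helps assemble the c ring (-1.21, adjusted p = 0.00317), and Uqcc1, needed for making cytochrome b (-1.11, adjusted p = 0.00394). Higd1a, a hypoxia-inducible protein of complex IV, had a log2 difference of 0.01 (adjusted p = 0.968).

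Markers of the cell types in the heart moved between the groups as well, where 23.0% of all features were lower and 16.1% higher. Of 8 cardiomyocyte markers, 7 were lower in KO-labelled hearts, with a median log2 difference of -0.70, and the sum of their signals relative to the array's 75th percentile was 4504 to 5457 in KO-labelled hearts, against 6782 to 9198 in control hearts. Of 7 fibroblast markers, 5 were higher, and over all 7 the median was 2.02 and the sum was 989 to 1132 in KO-labelled hearts, against 387 to 719 in control hearts. Postn had the largest difference (4.63), while in limma Pdgfra (0.33, adjusted p = 0.135) and Dcn (-0.23, adjusted p = 0.352) did not pass. Of 4 macrophage markers tested, 3 were higher (sum 117 to 187 in KO-labelled hearts, against 60.9 to 96.1 in control hearts). Control heart 2 was the highest control in each fibroblast and each tested macrophage marker, with Col1a1 at 3.88, 5.62 and 4.22 in the control hearts. It was the lowest control in each cardiomyocyte marker, as in 59.2% of all features. Whether this goes with its low values in the members was not tested. None of 6 endothelial markers passed in limma (0 of 6, or 1 lower at an unadjusted p under 0.05), and no array showed the skeletal muscle markers Myh1, Myh2 or Myh4 well above background. Of 2 lymphocyte markers tested in limma, Cd3d was higher (log2 difference 3.37, adjusted p = 0.0414) and Cd3e did not pass (0.23, adjusted p = 0.566). Cd3d had -1.88, 1.47 and -1.64 in KO-labelled hearts, against -5.43, -2.81 and -3.90 in control hearts. Of 2 epithelial markers tested, Krt18 was higher (2.43, adjusted p = 0.0462) and Krt14 did not pass (0.48, adjusted p = 0.529), with Epcam not well above background. For Krt18, KO-labelled heart 3 (3.09) and control heart 2 (3.02) were close. Of 5 smooth muscle and pericyte markers, 2 were lower and 1 higher, and in limma none of the erythroid (0 of 2) and brown adipocyte (0 of 3) markers tested passed, with 0 and 1 of them at an unadjusted p under 0.05. The sum over cardiomyocyte markers was lower in all KO-labelled hearts than in all control hearts, though such a sum is led by its brightest probes. In 41 of the 47 members, all KO-labelled hearts also lay below all control hearts (33.1% of all features). The part of cell makeup in the lower respiratory signal was not tested.

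**Figure D5:**
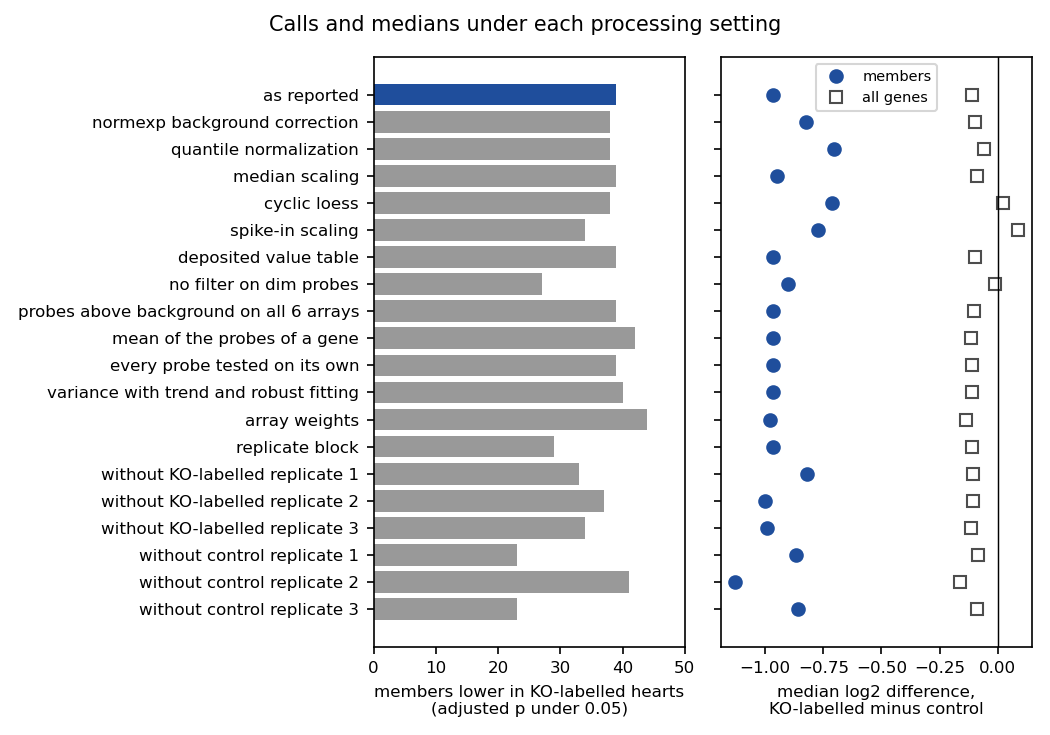
Left, number of the members that were lower in KO-labelled hearts with an adjusted p under 0.05, as reported (blue) and under 19 other settings (grey). Right, median log2 difference between KO-labelled and control hearts of the members (filled circles) and of all genes and features (open squares). The count lies between 23 and 44, and the member median stays between -1.13 and -0.71 while the median of all features lies between -0.16 and 0.09.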

How the data were processed

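RNA of 6 hearts (3 KO-labelled, 3 control) was labelled with Cy3 and measured on 1 array each. The deposited scanner files hold linear spot intensity. Per the file headers, Agilent Feature Extraction 11.0.1.1 subtracted the background and did not scale between arrays. A deposited value table holds log2 values. The submitters' processing notes name R 3.1.3 for it, and how it was normalized was not worked out here. After a constant was taken off for each array, its differences between arrays equalled those of the scanner files within 0.001 in 95.9% of cases. It served as an alternative only, and lay close to the main scaling (member median -0.968 against -0.969). Per the labels, either a column kit for hearts or a kit for blood RNA, with globin transcripts removed, was used, and which of them applies is unclear.

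Outlier spots were left out, spots of a probe averaged, log2 taken and the 75th percentile of each array subtracted. Of 55681 probes 55608 were kept, and 26551 were named by RefSeq accession through a GRCm38.p6 list of genes. No gene spot was saturated (0). Features well above background on all arrays of at least 1 group were tested, with the brightest probe for each gene. Tests used limma 3.58.1 in R 4.3.3 (data.table version 1.17.8), 2-sided, with adjusted p under 0.05 as threshold, and were tested on simulated data. With 3 arrays in a group, precision is limited by their number. Labels call the replicates biological. Replicate numbers did not pair the hearts: same-numbered residuals correlated at -0.15, -0.13 and -0.10.

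Members and lists were chosen with earlier results of these data known. Values per heart are given for the 3 largest and the smallest difference in each role group, every tested member that did not pass and every gene with probes of opposite sign, and outside genes are the 3 with the smallest p in each list, of which 1 is not reported here. Other genes named with values were chosen after their values were seen. Alternatives were normexp (offset 50), quantile, median, cyclic loess and spike-in scaling, the deposited table, other dim-probe filters, other uses of probes, a variance trend with robust fitting, weights for arrays, the replicate block and each heart left out. Normexp used median signals in place of the mean signals planned for it. No slide block could be fitted with 1 slide.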

Additional observations from a re-analysis of the deposited data

How the results depend on the processing

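Under 19 other settings the number of members lower in KO-labelled hearts was 27 with no filter on dim probes (6.54% of all features lower), 29 with the replicate block (13.6%), 34 with spike-in scaling (12.4%) and 44 with array weights (41.9%). Leaving out 1 heart gave 23 to 41, the lowest without control replicate 1 or 3. Of the 39 lower members, 21 passed in every setting and 0 changed sign. Of the other 18, all but Cox11 and Surf1 did not pass without control replicate 1 and without control replicate 3, and Cox16 did not pass in 11 settings. Members that were higher numbered 1 (Atp5c1) with normexp, quantile normalization and cyclic loess, with log2 differences of 0.37, 0.48 and 0.46, and 0 in the other settings. Values with a turned sign were those of Cox6b2 (0.0197, adjusted p = 0.936) and Cox18 (0.0672, adjusted p = 0.844) with spike-in scaling, Cox18 without KO replicate 2 (adjusted p = 0.839, with a range of -0.239 to 0.0373 over the hearts left out) and Atp5c1 when its probes were averaged (-0.49, adjusted p = 0.0295). The cause was not tested. The median of all features was 0.09 with spike-in scaling and 0.02 with cyclic loess, against -0.11 as reported, and the member median lay below it by 0.65 to 0.97 log2 units in every setting. With the replicate block, a pairing that the hearts did not bear out, Uqcr10, Atp5o, Atp5k and Atp5g2 had adjusted p of 0.0661, 0.0763, 0.0652 and 0.0520. Features passing in all, 7818 as reported, numbered 4345 with no filter, 13713 with array weights and 4854 with the replicate block, and 3962 to 8673 with 1 heart left out (3962 without control replicate 1, 4121 without control replicate 3 and 5140 without KO replicate 3). Of the complex I and II genes, 40 were lower as reported and 31 to 40 with 1 heart left out. Of the assembly factors outside the rule, 15 were lower as reported and 25 with array weights. Dim genes such as Cox17, Cox7b2 and Cox8c have no measured difference here.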
